A study of Homo sapiens with 6 samples.

Results

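The hypoxia response and glycolysis were followed through 43 genes in DU145 prostate cancer cells exposed to CCS1477. The genes were taken by symbol from the 60623 gene IDs of the deposited tables: 18 belong to the hypoxia response and 25 to glucose import, glycolysis and the handling of lactate. RNA had been sequenced after 24 h with 1 µM CCS1477 (3 libraries) or with the solvent DMSO (3 libraries). CCS1477, also called inobrodib, binds the bromodomain that p300 and CBP share, a pair of histone acetyltransferases. All 6 libraries came from 1 line, DU145, with its genotype given as WT. The cells grew in RPMI-1640 with 10% serum at 37 °C under 5% CO2, and the labels give no oxygen level. The compound was used at 1 dose and 1 time, so that neither a dose series nor an early response was measured. RNA was selected by its poly-A tail.

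The hypoxia-inducible factors (HIF) are pairs of an oxygen-regulated alpha subunit, HIF1A or EPAS1, and the stable partner ARNT. Prolyl hydroxylases use oxygen to mark the alpha subunits for destruction by the VHL ligase. When oxygen is scarce the alpha subunits persist, pair with ARNT, recruit p300 and CBP as coactivators and raise the transcription of genes for blood vessel growth, pH control, glucose uptake and glycolysis. Most glycolytic enzymes exist as several isozymes encoded by different genes, and many cancer cells send pyruvate to lactate even in air.

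Library totals were 8691393 to 9412893 estimated counts with CCS1477 and 8286883 to 11956748 with DMSO. Of the prostate luminal markers, KLK3, KLK2 and FOLH1 were at 0 in every library and TMPRSS2 was near 0. The 5 epithelial markers summed to 2127 to 2259 TPM with CCS1477 and 2191 to 2492 TPM with DMSO, and 2 of them, CDH1 and KRT19, were lower with CCS1477. The log2 fold changes of these 2 were -1.17 and -0.34. The 4 endothelial markers summed to at most 0.17 TPM with CCS1477 and 0.54 TPM with DMSO. The 4 leukocyte markers summed to 30.5 to 37.6 TPM with CCS1477 and 34.7 to 66.1 TPM with DMSO, nearly all from CD68, with PTPRC and CD3E at 0 in every library. CD68 was also lower with CCS1477, with a log2 fold change of -0.56 (adjusted p 0.00709 by edgeR). The 4 fibroblast markers, with COL3A1 and DCN at 0 in every library, summed to 3.99 to 5.46 TPM with CCS1477 and 5.78 to 10.8 TPM with DMSO. The part of these marker differences in the results was not tested. TPM corrects for transcript length and is used here wherever genes are compared with each other. Values between groups are CPM, which are counts set against the library total and scaled by TMM factors, which correct for differences in library composition, and the fold changes are from edgeR's quasi-likelihood test with p-values adjusted over all genes tested.

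Lower RNA was the more frequent change among these genes after CCS1477. Of the 43 genes 41 had enough counts to be tested, and 12 of them (29.3%) were lower at an adjusted p under 0.05. Over all 14928 genes tested, 10.7% were lower. The 43 genes were chosen with earlier results of these data known, so the choice itself may bear on these shares. ALDOA was the 1 gene of the 41 that was higher (2.44%), where 7.23% of all genes tested were higher. The other 28 did not pass in either direction. The 12 lower genes were EPAS1, EGLN3, VEGFA, CA12 and NDRG1 of the hypoxia response, and PFKFB2, PFKFB4, GPI, ENO1, LDHA, PDK1 and SLC16A1 of glycolysis and lactate handling. The median log2 fold change of the 41 was -0.12, with a range of -1.58 to 0.77, beside a median of -0.003 over all genes tested. The hypoxia genes outside glycolysis and the glycolysis and lactate genes had medians of -0.12 and -0.11. In 16 of the 41 genes every CCS1477 library lay below every DMSO library, and in 4 every one lay above. These patterns were met in 19.3% and 16.5% of all genes tested. Without CCS1477 library 2 only 7 of the 41 were lower, and on the log2(TPM + 1) scale, by limma, only 4 were (EPAS1, VEGFA, NDRG1 and LDHA) and none was higher. With scaling by library size alone 11 of the 41 were lower and 2 higher, and all genes then split into 1361 lower and 1456 higher calls, against 1597 lower and 1079 higher with TMM factors. Scaling also decides signs near 0: ARNT was at -0.03 on the log2 scale with TMM factors and at 0.0185 with library size alone.

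**Figure D1:**
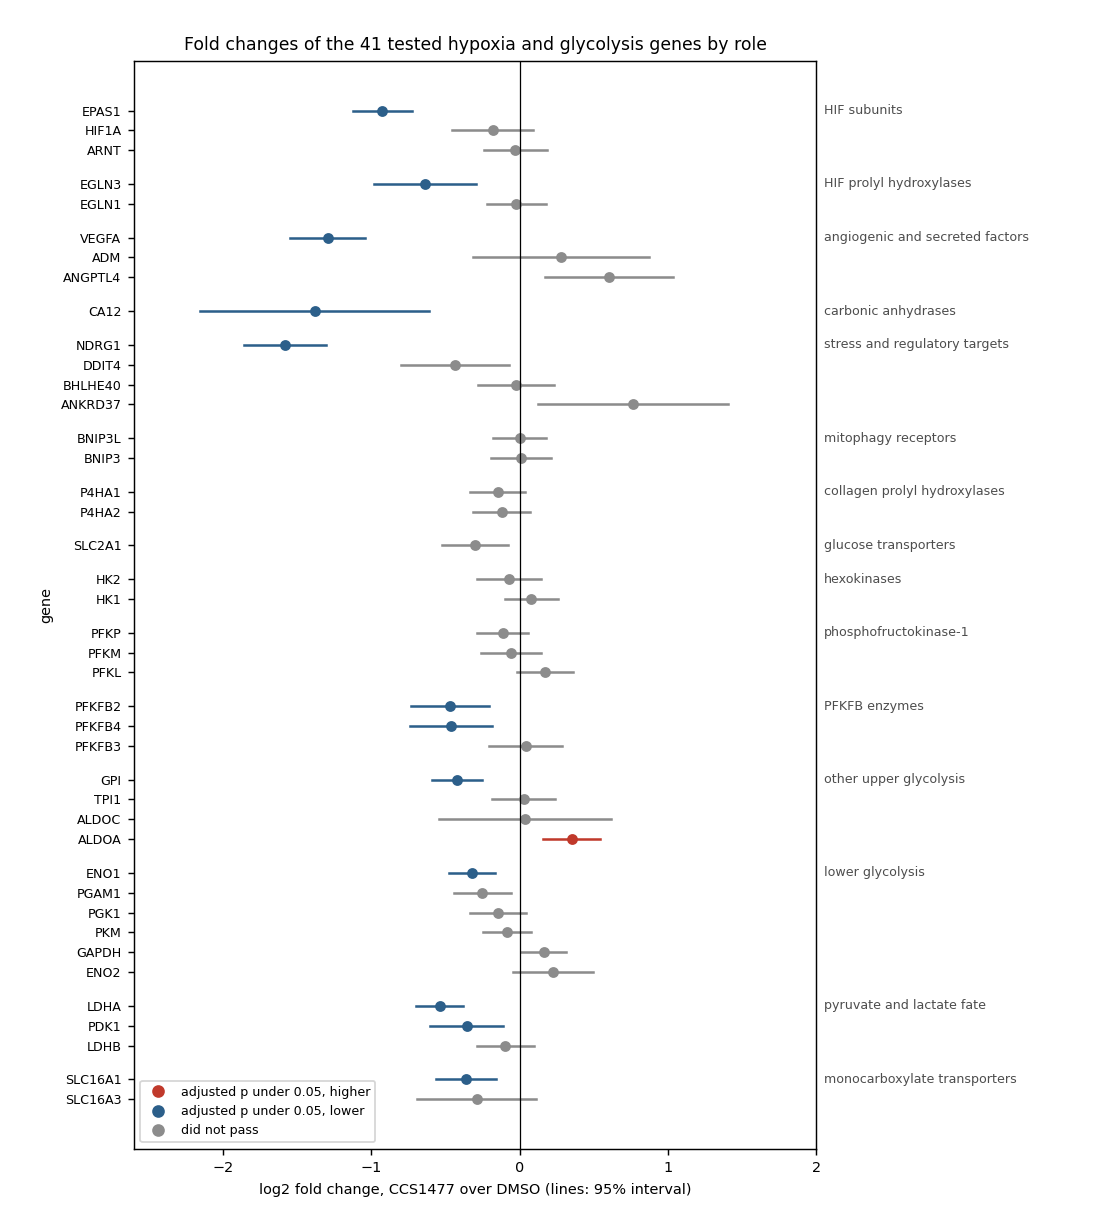
Log2 fold change of CCS1477 over DMSO (horizontal axis) for the 41 tested genes, arranged by role down the vertical axis; points are edgeR estimates, lines are 95% intervals, and colour marks the direction of genes with an adjusted p under 0.05. NDRG1, CA12 and VEGFA lie farthest to the left, at -1.58, -1.38 and -1.29, and ALDOA is the 1 gene that passed on the right, at 0.35.

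The promoters were read because the core of a HIF binding site reads ACGTG or GCGTG. The RefSeq promoter table (GRCh38.p14) held 37 of the 43 genes; SLC16A1, PFKFB2, SLC2A3, BNIP3L, NDRG1 and VEGFA were not matched. The 250 bases before each annotated start were searched on both strands for ACGTG and for GCGTG. The palindrome CACGTG counts as an ACGTG match on each strand. A gene was counted when any of its windows held the motif, so that genes with more annotated starts had more bases searched. ACGTG was found for 22 of the 37 genes, and for 21.7% of the 27305 genes in the table. GCGTG was found for 18 of the 37 genes, and for 36.2% of the table. Either motif was found for 30 of the 37 genes and 47.4% of the table, and CACGTG for 9 of the 37 and 7.73% of the table. Either motif was present for 7 of the 8 matched genes that were lower, for the 1 that was higher (ALDOA) and for 22 of the 28 others. By motif, ACGTG was found for 3 of the 8 lower genes, for ALDOA and for 18 of the 28 others, and GCGTG for 5 of the 8 lower genes, not for ALDOA, and for 13 of the 28 others. A match is a stretch of letters and does not show that HIF binds there.

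The following 6 windows, chosen after the expression values were seen, show such matches side by side: 4 belong to genes that were lower (LDHA, ENO1, PDK1, EPAS1), 1 to the gene that was higher (ALDOA) and 1 to a gene that did not pass (BNIP3). Where a gene has several starts, the window with the most matches is given. Each window runs 5′ to 3′ along the strand of its gene and ends just before the start of the transcript, with ACGTG and GCGTG on either strand in capitals.
LDHA chr11:18394313-18394562, plus strand: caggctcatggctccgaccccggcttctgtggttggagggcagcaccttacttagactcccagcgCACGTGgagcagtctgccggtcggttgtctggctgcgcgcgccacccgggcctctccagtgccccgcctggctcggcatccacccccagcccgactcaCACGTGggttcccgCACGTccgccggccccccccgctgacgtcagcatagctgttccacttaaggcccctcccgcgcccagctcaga
ENO1 chr1:8878687-8878936, minus strand: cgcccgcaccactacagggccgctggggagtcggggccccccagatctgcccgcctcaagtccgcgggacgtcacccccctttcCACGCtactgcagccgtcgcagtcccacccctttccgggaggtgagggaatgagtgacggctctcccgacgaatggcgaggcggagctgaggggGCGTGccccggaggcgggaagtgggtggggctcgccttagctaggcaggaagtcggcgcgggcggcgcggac
PDK1 chr2:172555840-172556089, plus strand: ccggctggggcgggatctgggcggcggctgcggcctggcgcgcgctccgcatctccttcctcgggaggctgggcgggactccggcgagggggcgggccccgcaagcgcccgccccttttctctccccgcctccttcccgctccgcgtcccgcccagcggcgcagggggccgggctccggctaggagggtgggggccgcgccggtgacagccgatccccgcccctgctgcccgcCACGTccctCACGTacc
EPAS1 chr2:46297157-46297406, plus strand: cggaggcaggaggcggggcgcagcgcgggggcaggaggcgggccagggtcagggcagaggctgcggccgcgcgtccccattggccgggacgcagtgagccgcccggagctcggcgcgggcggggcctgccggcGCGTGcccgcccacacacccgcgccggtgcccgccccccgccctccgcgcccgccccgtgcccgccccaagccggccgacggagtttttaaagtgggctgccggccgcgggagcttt
ALDOA chr16:30064247-30064496, plus strand: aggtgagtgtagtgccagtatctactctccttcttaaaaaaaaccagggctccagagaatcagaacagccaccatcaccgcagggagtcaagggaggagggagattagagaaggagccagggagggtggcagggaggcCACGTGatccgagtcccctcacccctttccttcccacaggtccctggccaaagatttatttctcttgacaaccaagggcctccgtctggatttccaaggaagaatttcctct
BNIP3 chr10:131981924-131982173, minus strand: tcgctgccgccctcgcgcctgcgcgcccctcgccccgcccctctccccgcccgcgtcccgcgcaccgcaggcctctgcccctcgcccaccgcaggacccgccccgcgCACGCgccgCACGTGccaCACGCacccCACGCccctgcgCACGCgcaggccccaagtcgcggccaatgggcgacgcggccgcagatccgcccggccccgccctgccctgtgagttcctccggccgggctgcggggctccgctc
The LDHA window held 5 matches to ACGTG, 4 of them from 2 copies of CACGTG. The ALDOA window held 1 CACGTG, and the BNIP3 window held 2 matches to ACGTG, from 1 CACGTG, and 4 to GCGTG. The ENO1 window held 2 matches to GCGTG and the EPAS1 window 1, and both ACGTG matches of PDK1 lay within 17 bases of the start.

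Of the HIF subunits, EPAS1 was lower with CCS1477, while HIF1A and ARNT did not pass the test. EPAS1 (ENSG00000116016, chromosome 2, 46293667 to 46386697) encodes the alpha subunit also known as HIF-2-alpha. It measured 81.1, 89.5 and 87.6 CPM in CCS1477 libraries 1, 2 and 3, against 174, 166 and 151 CPM in DMSO libraries 1, 2 and 3. The highest CCS1477 library lay well below the lowest DMSO library. The means were 86.1 ± 4.42 CPM in CCS1477 libraries and 164 ± 11.6 CPM in DMSO libraries (SD, n = 3 each), a log2 fold change of -0.93 ± 0.09 (SE) with an adjusted p of 4.78e-05. In bulk RNA, fewer cells carrying a transcript and less of it per cell cannot be told apart.

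HIF1A (ENSG00000100644, chromosome 14, 61695513 to 61748259), the other alpha subunit, measured 479.8, 420.2 and 411 CPM in CCS1477 libraries 1, 2 and 3, against 474, 598 and 414 CPM in DMSO libraries 1, 2 and 3. The groups overlapped: DMSO library 2 was the highest of the 6 and CCS1477 library 3 the lowest, just under DMSO library 3. The log2 fold change was -0.18 ± 0.12 (95% interval -0.45 to 0.09, adjusted p 0.354), and single DMSO libraries moved it widely: it was -0.30 (adjusted p 0.0496) without DMSO library 3 and -0.01 (adjusted p 0.952) without DMSO library 2. ARNT (ENSG00000143437, chromosome 1, 150809713 to 150876708) measured 108, 94.4 and 94.2 CPM in CCS1477 libraries 1, 2 and 3, against 97.5, 109.9 and 95.5 CPM in DMSO libraries 1, 2 and 3. Its values overlapped throughout, with a log2 fold change of -0.03 ± 0.10 and a 95% interval of -0.24 to 0.18. Per length, HIF1A had the most RNA of the subunits, with means of 163 ± 15.8 TPM in CCS1477 libraries and 178 ± 42.3 TPM in DMSO libraries. EPAS1 stood at 26.1 ± 2.46 TPM in CCS1477 libraries and 52.5 ± 16.1 TPM in DMSO libraries, and ARNT at 37.3 ± 3.25 TPM in CCS1477 libraries and 39.5 ± 3.94 TPM in DMSO libraries (SD, n = 3 each). On the TPM scale EPAS1 was below ARNT in all 3 CCS1477 libraries and above it in 2 of the 3 DMSO libraries.

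The prolyl hydroxylases EGLN1 and EGLN3 feed back on the pathway, since both genes are themselves induced by HIF. EGLN3 (ENSG00000129521, chromosome 14, 33924227 to 34462774) measured 15.6, 14.4 and 20.3 CPM in CCS1477 libraries 1, 2 and 3, against 27.8, 27.3 and 22.8 CPM in DMSO libraries 1, 2 and 3. All CCS1477 libraries lay below all DMSO libraries, although CCS1477 library 3 came close to DMSO library 3. The log2 fold change was -0.64 ± 0.16 with an adjusted p of 0.0163. Leaving out CCS1477 library 1, CCS1477 library 2 or DMSO library 1 gave adjusted p-values of 0.0650, 0.0877 and 0.0763, and EGLN3 overlaps SPTSSA on the same strand. EGLN1, the main oxygen sensor in most cells, measured 183 to 201 CPM in CCS1477 libraries and 176 to 209 CPM in DMSO libraries, which overlap. Its log2 fold change was -0.02 ± 0.09 (95% interval -0.22 to 0.18). The EGLN1 share of the summed TPM of the pair was 84.4, 89.4 and 84.9% in CCS1477 libraries 1, 2 and 3, against 77.7, 73.7 and 82.0% in DMSO libraries 1, 2 and 3. With EGLN2 also in the sum, a calculation added after the data were seen, the share averaged 53.2 ± 1.03% in CCS1477 libraries and 45.0 ± 2.14% in DMSO libraries. The share of the pair was higher in every CCS1477 library, and the two-sided exact permutation test gave 0.1, the smallest p that 3 against 3 libraries allow.

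NDRG1, CA12 and VEGFA showed the largest falls of the 41 tested genes, and VEGFA and NDRG1 did so at high levels. VEGFA (ENSG00000112715, chromosome 6, 43770184 to 43786487) encodes the growth factor that drives the sprouting of blood vessels and is a classical HIF target. It measured 208, 242 and 267 CPM in CCS1477 libraries 1, 2 and 3, against 556, 529.9 and 673 CPM in DMSO libraries 1, 2 and 3. The groups were wide apart, and the highest CCS1477 library lay far under the lowest DMSO library. Means were 239 ± 29.3 CPM in CCS1477 libraries and 586 ± 76.1 CPM in DMSO libraries (SD, n = 3 each), a log2 fold change of -1.29 ± 0.12 with an adjusted p of 2.38e-05. The other secreted factors did not pass. ANGPTL4, a secreted inhibitor of lipoprotein lipase, measured 36.8, 47.0 and 66.4 CPM in CCS1477 libraries 1, 2 and 3, against 39.2, 27.3 and 32.2 CPM in DMSO libraries 1, 2 and 3. The groups overlapped at CCS1477 library 1, the log2 fold change was 0.60 ± 0.20, and the adjusted p was 0.0536. ANGPTL4 passed as higher without CCS1477 library 1 (log2 fold change 0.79, adjusted p 0.0208), by DESeq2 (0.0136), and with other scaling factors or without the filter on low counts. Without CCS1477 library 3 it was 0.35 with an adjusted p of 0.245. ADM, which encodes the vasodilator adrenomedullin, was low in all libraries, at 5.39 to 12.2 CPM in CCS1477 libraries and 6.26 to 8.44 CPM in DMSO libraries, and overlapped between the groups (log2 fold change 0.28 ± 0.27, adjusted p 0.531). The ADM value was 0.54 without CCS1477 library 1 and -0.03 without CCS1477 library 3, so that its sign rested on single libraries.

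NDRG1 (ENSG00000104419, chromosome 8, 133237171 to 133302022), a stress-responsive gene induced by hypoxia, measured 64.6, 86.5 and 89.7 CPM in CCS1477 libraries 1, 2 and 3, against 266, 233 and 222 CPM in DMSO libraries 1, 2 and 3. The groups were far apart, and CCS1477 library 1 was the lowest of all. Means were 80.3 ± 13.7 CPM in CCS1477 libraries and 241 ± 22.8 CPM in DMSO libraries (SD, n = 3 each), which gave a log2 fold change of -1.58 ± 0.13 and an adjusted p of 1.01e-05. The other stress and regulatory genes did not pass. DDIT4, an inhibitor of mTORC1 signalling, measured 108, 139.5 and 142 CPM in CCS1477 libraries 1, 2 and 3, against 183, 128 and 216 CPM in DMSO libraries 1, 2 and 3. Its DMSO libraries were spread widely and DMSO library 2 fell among the CCS1477 values (log2 fold change -0.43 ± 0.17, adjusted p 0.0943). It was -0.61 (adjusted p 0.00387) without DMSO library 2 and -0.26 (adjusted p 0.203) without DMSO library 3. DDIT4 also passed as lower by DESeq2 (-0.42, adjusted p 0.0467) and without the filter on low counts (-0.42, adjusted p 0.00111). BHLHE40, a transcriptional repressor linked to the circadian clock, was at 96.5 to 134 CPM in CCS1477 libraries and 111 to 126 CPM in DMSO libraries, overlapping throughout (log2 fold change -0.02 ± 0.12). ANKRD37, a small ankyrin repeat protein gene, was at 3.89 to 4.82 CPM in CCS1477 libraries and 1.97 to 2.95 CPM in DMSO libraries. It was higher in every CCS1477 library, with a log2 fold change of 0.77 ± 0.29, and missed the threshold at an adjusted p of 0.0943. ANKRD37 overlaps UFSP2 on the opposite strand.

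The carbonic anhydrases CA9 and CA12 sit at the cell surface and help to export acid. CA9, a widely used hypoxia marker, was at or near 0 here, with 0 counts in each CCS1477 library and 2, 0 and 0 counts in DMSO libraries 1, 2 and 3. All of these are under the floor of 3 counts, so that no fold was computed. CA12 (ENSG00000074410, chromosome 15, 63321378 to 63381846) was low but measurable, at 3.48, 2.60 and 1.03 CPM in CCS1477 libraries 1, 2 and 3, against 5.63, 5.99 and 7.12 CPM in DMSO libraries 1, 2 and 3. Every CCS1477 library was below every DMSO library, and CCS1477 library 3 was the lowest. The log2 fold change was -1.38 ± 0.35 with an adjusted p of 0.0192. Leaving out CCS1477 library 2 or DMSO library 1 gave adjusted p-values of 0.0572 and 0.0510.

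The mitophagy receptors BNIP3 and BNIP3L, both HIF targets, did not pass the test, with narrow intervals. BNIP3 measured 307, 340.0 and 369.7 CPM in CCS1477 libraries 1, 2 and 3, against 334, 321 and 356 CPM in DMSO libraries 1, 2 and 3. BNIP3L was at 184 to 190.1 CPM in CCS1477 libraries and 182 to 198 CPM in DMSO libraries. The values of both overlapped, and the 95% intervals of the log2 fold changes were -0.19 to 0.21 for BNIP3 and -0.18 to 0.18 for BNIP3L. The collagen prolyl hydroxylase subunits did not pass either: P4HA1 had a log2 fold change of -0.15 ± 0.09 (adjusted p 0.265) and P4HA2 one of -0.12 ± 0.09 (adjusted p 0.383). P4HA1 was slightly lower in every CCS1477 library, at 164 to 175 CPM in CCS1477 libraries and 175 to 201 CPM in DMSO libraries.

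**Figure D2:**
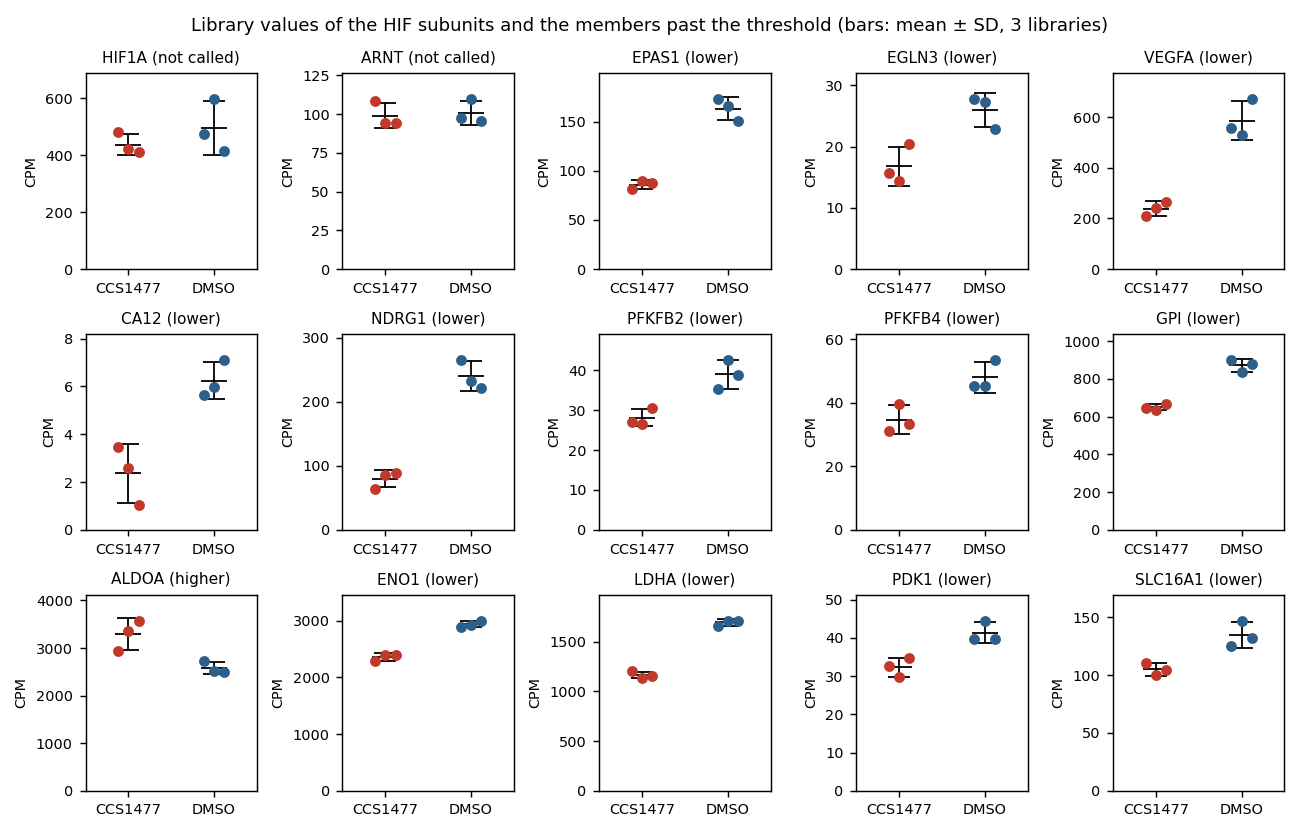
CPM scaled by TMM factors (vertical axes, from 0) in each CCS1477 and DMSO library for HIF1A, ARNT and the 13 genes that passed the test; points are libraries and bars are mean ± SD over 3 libraries. The groups are separate for all 13, with the widest gaps for VEGFA, NDRG1 and EPAS1. The narrowest gap is that of ALDOA, the 1 panel with the CCS1477 libraries on top. Those of EGLN3, SLC16A1, PFKFB4, PFKFB2 and PDK1 are also narrow.

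Of the glucose importers, SLC2A1 (GLUT1) averaged 99.7% of the summed TPM of SLC2A1 and SLC2A3 with CCS1477 and 99.3% with DMSO. SLC2A1 measured 221, 252 and 271 CPM in CCS1477 libraries 1, 2 and 3, against 338, 296 and 281 CPM in DMSO libraries 1, 2 and 3. All CCS1477 libraries were lower, by a small margin, with a log2 fold change of -0.30 ± 0.10 and an adjusted p of 0.0639, which did not pass. It passed without DMSO library 3 (-0.36, adjusted p 0.0157) and without the filter on low counts (-0.28, adjusted p 0.0374), while leaving out any other library gave adjusted p-values of 0.0758 to 0.275. SLC2A3 was not tested, at 5, 3 and 1 counts in CCS1477 libraries 1, 2 and 3 and 17, 5 and 8 counts in DMSO libraries 1, 2 and 3.

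The enzymes that commit glucose to glycolysis did not pass. Hexokinase traps glucose as its phosphate: HK1 had a log2 fold change of 0.08 ± 0.08 (adjusted p 0.560) and HK2, the form most often tied to HIF, one of -0.07 ± 0.10 (adjusted p 0.672), with overlapping values for both. The phosphofructokinase genes PFKL, PFKM and PFKP stood at 0.17 ± 0.09, -0.06 ± 0.09 and -0.12 ± 0.08 on the log2 scale (adjusted p 0.197, 0.718 and 0.348). PFKL was higher in every CCS1477 library, at 239.7 to 271 CPM in CCS1477 libraries and 212 to 233 CPM in DMSO libraries. PFKP was lower in every CCS1477 library, at 359 to 384 CPM in CCS1477 libraries and 399 to 414 CPM in DMSO libraries.

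The PFKFB enzymes make and break the small activator that sets the pace of phosphofructokinase, and 2 of the 3 tested were lower. PFKFB2 (ENSG00000123836, chromosome 1, 207034366 to 207081024) measured 27.2, 26.7 and 30.6 CPM in CCS1477 libraries 1, 2 and 3, against 35.4, 42.7 and 38.8 CPM in DMSO libraries 1, 2 and 3. The groups did not overlap, and the log2 fold change was -0.47 ± 0.12 with an adjusted p of 0.0194. PFKFB4 (ENSG00000114268, chromosome 3, 48517684 to 48562015) measured 31.1, 39.7 and 33.4 CPM in CCS1477 libraries 1, 2 and 3, against 45.2, 45.2 and 53.5 CPM in DMSO libraries 1, 2 and 3. Its groups were also separate, CCS1477 library 2 lying nearest to the DMSO values, with a log2 fold change of -0.46 ± 0.13 and an adjusted p of 0.0251. PFKFB3, the form with the strongest kinase activity, stood well above both on the TPM scale, with means of 63.8 ± 11.1 TPM in CCS1477 libraries and 68.2 ± 1.94 TPM in DMSO libraries. In CPM it measured 146, 199 and 183 CPM in CCS1477 libraries 1, 2 and 3, against 177, 159 and 177 CPM in DMSO libraries 1, 2 and 3. These values overlapped, and the log2 fold change was 0.04 ± 0.11 (adjusted p 0.845). The PFKFB2 call was lost without CCS1477 library 1, CCS1477 library 2 or DMSO library 2 (adjusted p 0.0578 to 0.0973), and the PFKFB4 call without CCS1477 library 1, CCS1477 library 3 or DMSO library 1 (0.0590 to 0.09997). PFKFB2 overlaps YOD1 on the opposite strand.

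Upper glycolysis held changes in both directions, GPI being lower and ALDOA higher. GPI (ENSG00000105220, chromosome 19, 34359480 to 34402413), which turns glucose phosphate into fructose phosphate, measured 647, 637 and 667 CPM in CCS1477 libraries 1, 2 and 3, against 903, 835 and 879 CPM in DMSO libraries 1, 2 and 3. The CCS1477 libraries were close together and all below the DMSO libraries. The log2 fold change was -0.42 ± 0.08 and the adjusted p 0.00304. On the TPM scale the groups overlapped, at 578 to 605 TPM in CCS1477 libraries and 572 to 785 TPM in DMSO libraries, and the log2(TPM + 1) difference was -0.17 with an adjusted p of 0.498 by limma.

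ALDOA (ENSG00000149925, chromosome 16, 30064164 to 30070457), the main aldolase of muscle and of most tumours, measured 2932, 3365 and 3579 CPM in CCS1477 libraries 1, 2 and 3, against 2733, 2515 and 2495 CPM in DMSO libraries 1, 2 and 3. All CCS1477 libraries were higher, and CCS1477 library 1 was the nearest to the DMSO values. The log2 fold change was 0.35 ± 0.09 with an adjusted p of 0.0168. The call was lost without CCS1477 library 2 (0.0791) or CCS1477 library 3 (0.106). An unnamed gene (ENSG00000285043) overlaps ALDOA on the same strand and did not pass, at -0.33 ± 0.14 on the log2 scale (adjusted p 0.129). The sum of both, an analysis added after the data were seen, was higher by 0.29 ± 0.09 (adjusted p 0.0415). ALDOC, the brain aldolase, was low, at 3.14 to 4.23 CPM in CCS1477 libraries and 3.56 to 3.67 CPM in DMSO libraries. TPI1, which interconverts the triose phosphates, was at 812 to 941 CPM in CCS1477 libraries and 780.4 to 966 CPM in DMSO libraries (log2 fold change 0.03 ± 0.10).

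Lower glycolysis held 1 change that passed, in ENO1. ENO1 (ENSG00000074800, chromosome 1, 8861000 to 8879190), the common enolase, measured 2283, 2403 and 2395 CPM in CCS1477 libraries 1, 2 and 3, against 2899, 2931 and 3006 CPM in DMSO libraries 1, 2 and 3. The groups were clearly separate, with little spread within each. The log2 fold change was -0.32 ± 0.07 with an adjusted p of 0.00912, while on the log2(TPM + 1) scale it was -0.30 with an adjusted p of 0.242 by limma. ENO2, the neuronal enolase, measured 128, 151 and 151 CPM in CCS1477 libraries 1, 2 and 3, against 113, 108 and 148 CPM in DMSO libraries 1, 2 and 3. Here DMSO library 3 fell among the CCS1477 values, and the log2 fold change was 0.22 ± 0.12 (adjusted p 0.243). Without DMSO library 3 it passed as higher, at 0.37 with an adjusted p of 0.0142, and without any other library it was 0.15 to 0.30 with adjusted p-values of 0.168 to 0.488.

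The remaining lower-glycolysis genes did not pass. GAPDH, often used as a reference gene, measured 5061, 5232 and 5347 CPM in CCS1477 libraries 1, 2 and 3, against 4846, 4559 and 4576 CPM in DMSO libraries 1, 2 and 3. It was higher in every CCS1477 library, by 0.16 ± 0.07 on the log2 scale with an adjusted p of 0.131. PGAM1, phosphoglycerate mutase, was lower in every CCS1477 library, at 820.3 to 925 CPM in CCS1477 libraries and 949 to 1132 CPM in DMSO libraries (log2 fold change -0.25 ± 0.09, adjusted p 0.0732), and passed as lower without DMSO library 2 (-0.30, adjusted p 0.0354) but did not when any other library was left out (0.0869 to 0.226). The kinase genes PGK1 and PKM, whose enzymes each make ATP, stood at -0.14 ± 0.09 and -0.08 ± 0.08 on the log2 scale (adjusted p 0.291 and 0.481), and their values overlapped between the groups.

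LDHA showed the largest fall among the glycolysis and lactate genes that passed, and was called lower under all 16 alternatives, as were EPAS1, VEGFA and NDRG1. Its subunit favours the conversion of pyruvate to lactate, while that of LDHB favours the reverse. LDHA (ENSG00000134333, chromosome 11, 18394560 to 18408425) measured 1202, 1136 and 1159.6 CPM in CCS1477 libraries 1, 2 and 3, against 1654, 1714 and 1714 CPM in DMSO libraries 1, 2 and 3. Replicates were tight in both groups and the groups were far apart. Means were 1166 ± 33.4 CPM in CCS1477 libraries and 1694 ± 34.2 CPM in DMSO libraries (SD, n = 3 each), a log2 fold change of -0.54 ± 0.07 with an adjusted p of 0.000463. LDHB measured 491, 486 and 458 CPM in CCS1477 libraries 1, 2 and 3, against 482, 489 and 565 CPM in DMSO libraries 1, 2 and 3. Its groups overlapped, with a log2 fold change of -0.10 ± 0.09 and an adjusted p of 0.488.

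PDK1 (ENSG00000152256, chromosome 2, 172555373 to 172608669), a kinase that shuts the entry of pyruvate into the mitochondrial cycle, measured 32.5, 29.8 and 34.7 CPM in CCS1477 libraries 1, 2 and 3, against 39.8, 44.6 and 39.8 CPM in DMSO libraries 1, 2 and 3. The groups were separate by a few CPM, and the adjusted p of 0.0486 lay just under the threshold (log2 fold change -0.36 ± 0.11). It was above the threshold in 13 of 16 alternative settings, among them leaving out any 1 library other than DMSO library 3 (0.0798 to 0.206). SLC16A1 (ENSG00000155380, chromosome 1, 112911847 to 112957013), the lactate carrier MCT1, measured 110.4, 99.96 and 104 CPM in CCS1477 libraries 1, 2 and 3, against 125, 147 and 132 CPM in DMSO libraries 1, 2 and 3. It was lower in every CCS1477 library, with a log2 fold change of -0.36 ± 0.09 and an adjusted p of 0.0191, and did not pass without CCS1477 library 2, CCS1477 library 3 or DMSO library 2 (0.0597 to 0.105). SLC16A3, the exporter MCT4 and a HIF target, was spread widely with DMSO, at 376, 484 and 499 CPM in CCS1477 libraries 1, 2 and 3, against 555, 384 and 722 CPM in DMSO libraries 1, 2 and 3. DMSO library 2 fell among the CCS1477 values, and the log2 fold change was -0.29 ± 0.18 (adjusted p 0.317). It was -0.48 (adjusted p 0.0203) without DMSO library 2, -0.06 (adjusted p 0.819) without DMSO library 3 and -0.16 (adjusted p 0.655) without CCS1477 library 1. SLC16A3 also passed as lower without the filter on low counts (-0.27, adjusted p 0.0418).

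Added up per step, RNA for the pathway did not separate the groups as a whole. The 10 enzymatic steps from hexokinase to pyruvate kinase summed to 19187 ± 696 TPM in CCS1477 libraries and 17807 ± 1422 TPM in DMSO libraries (SD, n = 3 each), and the libraries of the groups overlapped. The share of all TPM was 1.84, 1.95 and 1.97% in CCS1477 libraries 1, 2 and 3, against 1.88, 1.85 and 1.62% in DMSO libraries 1, 2 and 3, so that DMSO library 3 stood below the rest. Aldolase summed to 3697 ± 349 TPM in CCS1477 libraries and 2746 ± 258 TPM in DMSO libraries. Lactate dehydrogenase summed to 1461 ± 64.2 TPM in CCS1477 libraries and 1849.7 ± 51.2 TPM in DMSO libraries, and enolase to 2337 ± 21.5 TPM in CCS1477 libraries and 2830.0 ± 319 TPM in DMSO libraries (SD, n = 3 each). GAPDH, the most abundant of the 10 steps, stood at 6997 ± 103 TPM in CCS1477 libraries and 5927 ± 489 TPM in DMSO libraries. The levels of the steps spanned more than an order of magnitude, with hexokinase the lowest of the enzymatic steps in both groups.

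**Figure D3:**
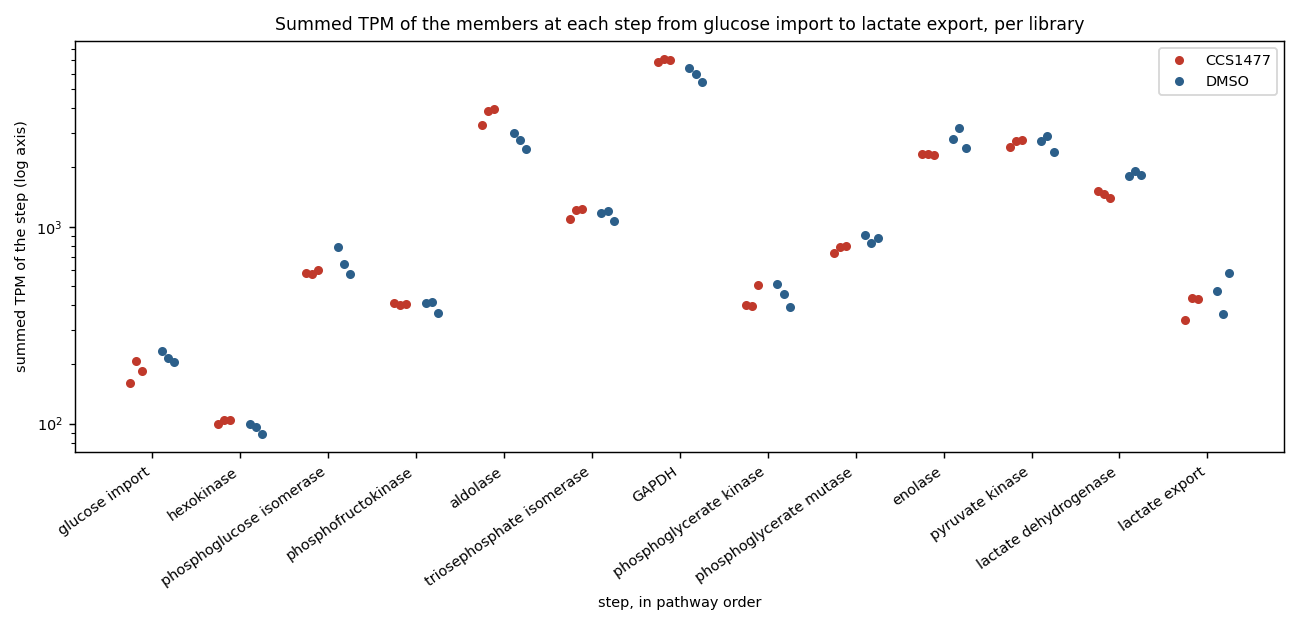
Summed TPM of the genes at each step from glucose import to lactate export (vertical axis, logarithmic) in each CCS1477 and DMSO library. The CCS1477 points lie below the DMSO points at lactate dehydrogenase, enolase and phosphoglycerate mutase and above them at aldolase and GAPDH. The points of the groups overlap at the other steps, and GAPDH is the highest step in both groups.

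Isozyme composition was compared as the share of 1 gene in the summed TPM of the members of its reaction among the 43 genes, which does not depend on scaling between libraries. The LDHA share of lactate dehydrogenase was 57.1, 56.2 and 57.6% in CCS1477 libraries 1, 2 and 3, against 65.6, 67.0 and 64.3% in DMSO libraries 1, 2 and 3. The share was lower in each CCS1477 library, with a mean difference of -8.68 percentage points. The ENO1 share of enolase was 94.7, 94.3 and 94.1% in CCS1477 libraries 1, 2 and 3, against 96.1, 97.0 and 96.0% in DMSO libraries 1, 2 and 3. Here too every CCS1477 library was lower, with a mean difference of -2.01 points. The PFKL share of phosphofructokinase was 30.2, 31.0 and 34.1% in CCS1477 libraries 1, 2 and 3, against 28.2, 26.5 and 28.7% in DMSO libraries 1, 2 and 3. It was higher in each CCS1477 library, by 3.95 points on average. HK1 was also higher within hexokinase, at 82.8, 85.1 and 83.3% in CCS1477 libraries 1, 2 and 3, against 82.5, 82.0 and 81.2% in DMSO libraries 1, 2 and 3. Of the 12 shares compared, 6 did not overlap between the groups (LDHA, ENO1, PFKL, HK1, EGLN1 and ALDOA). Each of the 6 had a raw two-sided exact permutation p of 0.1, the smallest possible with 3 libraries a group, and 0.2 after Benjamini-Hochberg adjustment over the 12, so that none passed or could pass.

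**Figure D4:**
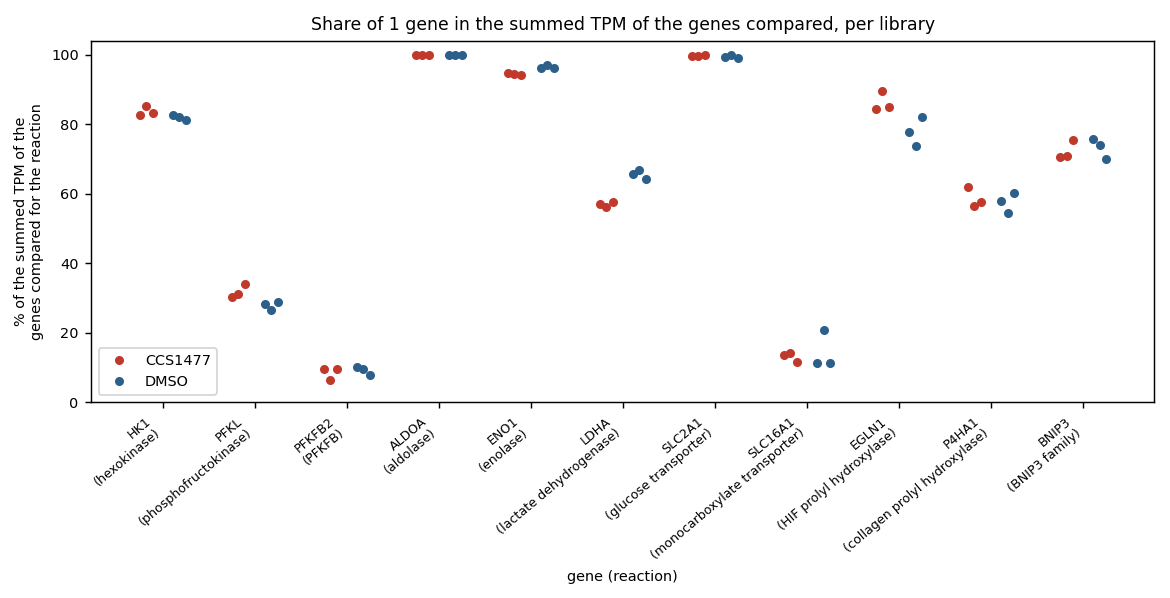
Share of 1 gene in the summed TPM of the genes compared for its reaction, which are members among the 43 genes only (vertical axis, percent), in each CCS1477 and DMSO library, for 11 of the 12 reactions, leaving out the carbonic anhydrases because CA9 was under the floor. LDHA lies lower in all 3 CCS1477 libraries (mean 57.0% with CCS1477 and 65.6% with DMSO) and EGLN1 and PFKL lie higher, while PFKFB2, SLC16A1, P4HA1 and BNIP3 overlap.

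Genes around the pathway were read from 7 further lists with 110 genes, of which 98 were tested. Of these, 22 were lower (22.4%, beside 10.7% of all genes tested) and 5 higher (5.1%, beside 7.23%), with a median log2 fold change of -0.11. Other HIF targets, the longest list, had 11 of 32 tested genes lower (34.4%), 2 higher (6.25%) and a median of -0.26. ERRFI1, a feedback inhibitor of the EGF receptor, averaged 180.1 ± 12.7 CPM in CCS1477 libraries and 402 ± 26.6 CPM in DMSO libraries (log2 fold change -1.16 ± 0.09, adjusted p 9.44e-06). TFRC, the transferrin receptor for iron uptake, averaged 466 ± 23.2 CPM in CCS1477 libraries and 858 ± 27.6 CPM in DMSO libraries (log2 fold change -0.88 ± 0.08, adjusted p 2.53e-05). STC2, a secreted stanniocalcin, and ERO1A, an oxidase that forms disulfide bonds in the endoplasmic reticulum, were lower, at -0.83 ± 0.10 and -0.67 ± 0.09 on the log2 scale (adjusted p 0.000151 and 0.000352). In all 4 genes the CCS1477 libraries lay below all DMSO libraries. PLOD2, a collagen lysyl hydroxylase, and WSB1 were higher, by 0.29 ± 0.09 and 0.34 ± 0.11 (adjusted p 0.041 and 0.0475). Both of these calls were lost without any 1 CCS1477 library or DMSO library 1, with adjusted p-values of 0.0959 to 0.125 for PLOD2 and 0.0816 to 0.188 for WSB1.

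**Figure D5:**
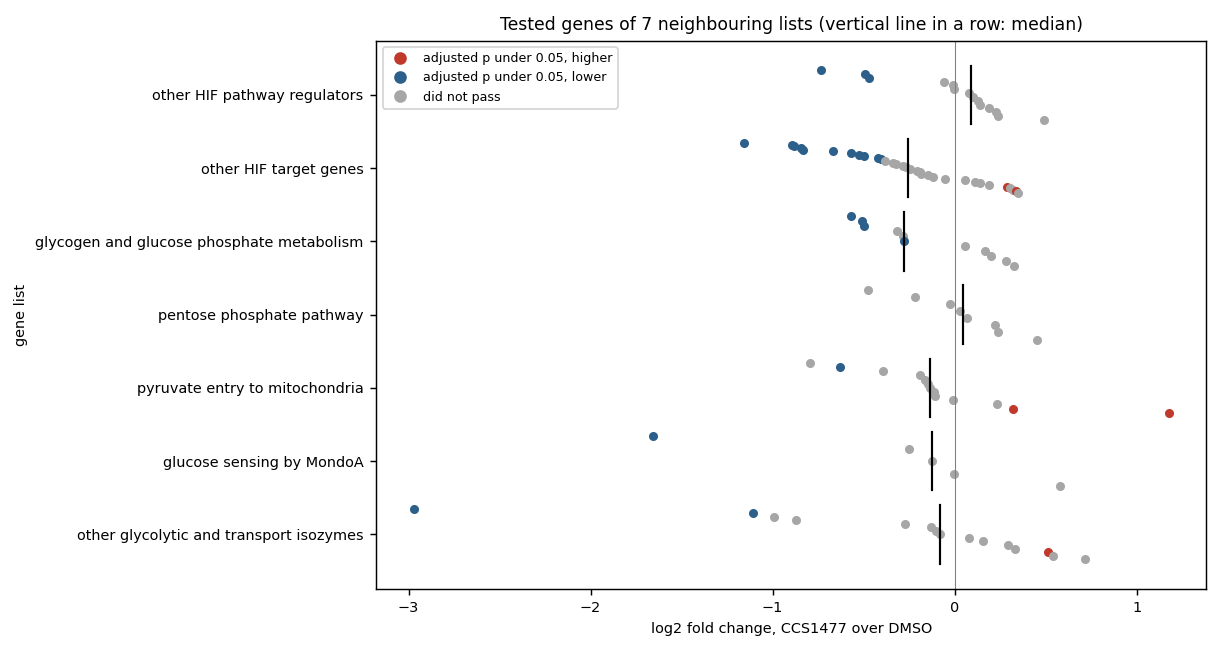
Log2 fold change of CCS1477 over DMSO (horizontal axis) for the 98 tested genes of 7 lists (vertical axis); each point is a gene, colour marks genes with an adjusted p under 0.05 and their direction, and the vertical line in each row is the median of the list. The other HIF targets have a median of -0.26 and 11 lower genes, and the pentose phosphate pathway has no gene past the threshold.

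Among the other regulators of HIF, 3 of 14 tested genes were lower (21.4%, beside 10.7% of all genes tested). None was higher, beside 7.23% of all genes tested, and the median log2 fold change was 0.09. CITED2, itself a HIF target, encodes a protein that competes with the HIF alpha subunits for p300 and CBP. It measured 78.3, 79.1 and 83.3 CPM in CCS1477 libraries 1, 2 and 3, against 145, 135 and 120.1 CPM in DMSO libraries 1, 2 and 3. The groups were well apart, with a log2 fold change of -0.73 ± 0.09 and an adjusted p of 0.000344. EGLN2, the remaining prolyl hydroxylase gene, and ARNT2, a relative of ARNT, were lower, at -0.47 ± 0.10 and -0.50 ± 0.12 on the log2 scale (adjusted p 0.00923 and 0.0148), the ARNT2 call being lost without CCS1477 library 1 or 2 (0.0511 and 0.0786). HIF3A and the hormone gene EPO had 0 counts in all 6 libraries.

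Glycogen and glucose phosphate metabolism had 4 of 11 tested genes lower (36.4%) and none higher, with a median of -0.28. They were, with their log2 fold changes, GBE1, the glycogen branching enzyme (-0.57 ± 0.13, adjusted p 0.00966), PPP1R3B and PPP1R3C, which bring a phosphatase to glycogen (-0.50 ± 0.12 and -0.51 ± 0.13, adjusted p 0.0166 and 0.0224), and UGP2, which makes UDP-glucose (-0.28 ± 0.09, adjusted p 0.0427). In all 4 the CCS1477 libraries lay below the DMSO libraries. The PPP1R3B call was lost without CCS1477 library 3 or DMSO library 2 (0.0847 and 0.0506), the PPP1R3C call without any 1 CCS1477 library or DMSO library 1 (0.0562 to 0.0926), and the UGP2 call without any 1 library other than DMSO library 3 (0.0757 to 0.170). None of the 8 pentose phosphate genes passed, and their median was 0.05.

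At the entry of pyruvate into mitochondria 2 of 13 tested genes were higher (15.4%, beside 7.23% of all genes tested). Of the list 1 gene was lower (7.69%, beside 10.7%), the median log2 fold change was -0.13 and 10 of the 13 values were negative. MPC1, a subunit of the mitochondrial pyruvate carrier, measured 9.43, 8.23 and 6.86 CPM in CCS1477 libraries 1, 2 and 3, against 3.33, 4.36 and 3.07 CPM in DMSO libraries 1, 2 and 3. The gene was low in both groups but every CCS1477 library was above every DMSO library, with a log2 fold change of 1.18 ± 0.24 and an adjusted p of 0.00602. DLD, a subunit of pyruvate dehydrogenase and related complexes, was higher by 0.32 ± 0.08 (adjusted p 0.0192), a call that was lost without CCS1477 library 2, CCS1477 library 3 or DMSO library 1 (0.0695 to 0.0828). PC, which carboxylates pyruvate, was lower, with a log2 fold change of -0.63 ± 0.13 (adjusted p 0.00562). TXNIP, a glucose-induced brake on glucose uptake and the 1 of 5 genes of the glucose-sensing MondoA list that passed, measured 1.46, 1.98 and 2.97 CPM in CCS1477 libraries 1, 2 and 3, against 9.21, 6.33 and 4.54 CPM in DMSO libraries 1, 2 and 3. It was lower in every CCS1477 library (log2 fold change -1.66 ± 0.34, adjusted p 0.00657). The MondoA list thus had 20% of its genes lower, beside 10.7% of all genes tested, and none higher. Its log2 fold changes ran from -1.66 to 0.58.

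Of 15 further isozymes and transporters tested, 2 were lower (13.3%) and 1 higher (6.67%), close to the shares of 10.7% and 7.23% over all genes tested. HKDC1, a hexokinase-related gene, measured 0.112, 0.625 and 0.114 CPM in CCS1477 libraries 1, 2 and 3, against 2.47, 2.74 and 1.84 CPM in DMSO libraries 1, 2 and 3 (adjusted p 0.00507), where the floor of 3 counts was 0.319 to 0.345 CPM with CCS1477. CCS1477 libraries 1 and 3 were thus below the floor. SLC2A12, a glucose transporter, was lower, with a log2 fold change of -1.11 ± 0.35 (adjusted p 0.0467), and SLC2A13, a myo-inositol transporter, was higher, at 0.51 ± 0.15 (adjusted p 0.034). The SLC2A12 call was lost without CCS1477 library 1, CCS1477 library 3, DMSO library 1 or DMSO library 2 (0.0701 to 0.187). The SLC2A13 call was lost without CCS1477 library 2, CCS1477 library 3, DMSO library 1 or DMSO library 3 (0.0509 to 0.168). The testis forms PGK2 and LDHC had 0 counts in every library.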

How the data were processed

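Poly-A RNA of 6 DU145 samples was sequenced, 3 with CCS1477 and 3 with DMSO, grouped by sample title. The authors deposited estimated counts per gene, not normalized, and TPM values per gene. The submitters' processing notes name Trimmomatic 0.39. For the aligner, quantifier, build and strandedness, nothing is given in the sources used here, so that reads of overlapping, antisense or near-identical genes cannot be told apart, and coordinates of genes are as the files give them. Before the test the estimated counts were rounded to integers. Totals per library of 8286883 to 11956748 put a floor of 3 counts at 0.251 to 0.362 CPM, which covers counting error only. Genes were kept by filterByExpr (minimum count 10, minimum total 15), which left 14928. Groups were compared with edgeR 4.0.16 (quasi-likelihood test, TMM factors, no covariates, Benjamini-Hochberg adjustment, threshold 0.05) in R 4.3.3. The labels do not say whether the libraries came from separate cultures, so that p-values reflect only how far these samples differ from each other, perhaps for technical reasons. Alternatives used DESeq2 1.42.0, limma 3.58.1 (voom, and log2 of TPM plus 1 or 0.1), other factors, filters and thresholds, the replicate number as a block, and each library left out. The fits were tested on simulated data. Library values are given for the genes past the threshold and the HIF subunits, and for others where their values were looked at after the tests. From each further list up to 4 genes with the smallest adjusted p, and up to 2 of the opposite sign, are named. The genes and lists were chosen with earlier results of these data known. Promoter sequences are from RefSeq (GRCh38.p14).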

Additional observations from a re-analysis of the deposited data

How the results depend on the processing

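Of the 43 genes, EPAS1, VEGFA, NDRG1 and LDHA stayed lower in all 16 alternatives, and GPI and ENO1 in 14. With log2(TPM + 1) and with log2(TPM + 0.1), tested by limma, the lower genes numbered 4 and 4, and the higher ones 0 and 0; over all genes there were 427 and 410 lower and 293 and 280 higher, and in the other pathway lists 6 and 6 lower and 1 and 1 higher. At a threshold of 0.01 there were 6 lower and 0 higher of the 43, 852 lower and 380 higher over all genes, and 13 lower and 1 higher in the other lists. Higher genes of the 43 numbered 2 with relative log expression factors, 2 with library size alone, 2 without the filter and 2 by DESeq2, the added gene being ANGPTL4, and with library size alone the other lists had 8 higher. Leaving out each library in turn gave 7 to 14 lower and 0 to 2 higher of the 43, 925 to 1772 lower and 487 to 1311 higher over all genes, and 1 to 6 higher in the other lists. The counts of lower calls over all genes were 925, 1042 and 973 without CCS1477 library 2, CCS1477 library 3 and DMSO library 1. Replicate numbers did not pair the samples (correlations of deviations -0.09, -0.20 and 0.01). A replicate block gave 10 lower and 0 higher of the 43, 1306 lower and 799 higher over all genes, and 19 lower and 1 higher in the other lists. The calls of ALDOA, SLC16A1 and PDK1 were lost with the block, at adjusted p-values of 0.0562, 0.05003 and 0.0970. Under the alternatives the sign turned for 11 of the 41 tested genes, of which 10 had a log2 fold change within 0.1 of 0 and the other was ADM (-0.03 without CCS1477 library 3). None of the 11 had passed. ARNT was 0.0185 with library size alone and -0.0936 to 0.0464 over the left-out libraries. Share differences, CCS1477 minus DMSO, ran from -1.31 to 0.47 points for PFKFB2, -2.997 to 1.81 for SLC16A1, -0.57 to 2.40 for P4HA1 and -2.77 to 0.20 for BNIP3 when single libraries were left out, and were -0.39 for P4HA1 and 0.0519 for BNIP3 from library-size CPM. The cause of these changes was not tested.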
